A study of Homo sapiens with 10 samples.

Results

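Replication-dependent histone genes were taken as the probe sets whose single gene symbol in the platform annotation is H1-1 to H1-6 or is H2AC, H2BC, H3C or H4C followed by a number. This gave 48 of 54675 probe sets on the array, 41097 of which have a single symbol. The 48 stand for 42 genes, of which 40 lie on chromosome 6 and 2 on chromosome 1. They were followed in MiaPaCa2 cells, a human pancreatic tumour line, on 10 Affymetrix arrays. The 8 treated arrays were of cells given supernatant of pancreatic stellate cells for 1, 2, 3, 4, 5, 6, 7 and 24 h, where the stellate cells, the matrix-depositing fibroblast-like cells of the pancreas, had been primed with pooled supernatant of 8 tumour cell lines. The 2 control arrays were of the same line at 0 and 24 h, and what medium they received is not given in the sources used here. There was 1 array for each time. Separate cultures are not mentioned in the labels, so a p-value here reflects only the spread among these arrays, which may be technical.

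Replication-dependent histone genes supply the core histones H2A, H2B, H3 and H4 and the linker histone H1 for the nucleosomes that are assembled on new DNA in S phase. Their transcription is switched on at the start of S phase through NPAT, a coactivator phosphorylated by cyclin E and CDK2. Their messages end in a stem-loop held by SLBP instead of a poly(A) tail. Some of these genes, H2BC21, H2BC5 and H2BC12 among them, also give polyadenylated transcripts, which are known from resting and differentiating cells. The labels name the standard Affymetrix labelling protocol, which primes at poly(A) tails, so that a level here need not follow the stem-loop message of the same gene. How far each form contributed was not tested.

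The promoters of 6 members described below are shown. H2AC6, H2BC21 and H2AC25 fell over the hours, and H4C11 was higher at hours 4 to 7 than in controls. H2BC12 and H1-2 are the H2B and H1 members with the highest mean, and neither was called in the main fits. Each line gives the 250 bases before the gene's start, 5′ to 3′ on the gene's strand, from RefSeq on GRCh38.p14. Capitals mark the core promoter element TATAAA, the CCAAT box and ATTTGCAT, the octamer known from H2B promoters, each read on either strand.
H2AC6, chr6:26123922-26124171, plus strand: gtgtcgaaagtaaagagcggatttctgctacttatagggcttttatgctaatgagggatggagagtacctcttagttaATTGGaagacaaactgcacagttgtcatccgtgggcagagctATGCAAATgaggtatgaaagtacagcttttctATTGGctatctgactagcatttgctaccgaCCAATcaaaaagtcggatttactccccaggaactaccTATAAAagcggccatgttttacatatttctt
H2BC21, chr1:149886683-149886932, minus strand: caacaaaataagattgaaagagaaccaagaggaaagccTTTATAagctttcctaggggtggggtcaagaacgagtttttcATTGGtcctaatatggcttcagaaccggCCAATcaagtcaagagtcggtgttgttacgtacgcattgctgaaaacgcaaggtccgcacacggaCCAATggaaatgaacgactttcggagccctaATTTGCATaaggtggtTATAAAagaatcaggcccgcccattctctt
H2AC25, chr1:228457874-228458123, minus strand: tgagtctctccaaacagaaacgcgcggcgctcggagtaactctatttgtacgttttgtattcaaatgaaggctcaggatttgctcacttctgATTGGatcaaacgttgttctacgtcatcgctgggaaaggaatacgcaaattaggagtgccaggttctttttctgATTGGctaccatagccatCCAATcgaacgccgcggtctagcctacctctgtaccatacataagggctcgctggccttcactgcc
H2BC12, chr6:27146859-27147108, minus strand: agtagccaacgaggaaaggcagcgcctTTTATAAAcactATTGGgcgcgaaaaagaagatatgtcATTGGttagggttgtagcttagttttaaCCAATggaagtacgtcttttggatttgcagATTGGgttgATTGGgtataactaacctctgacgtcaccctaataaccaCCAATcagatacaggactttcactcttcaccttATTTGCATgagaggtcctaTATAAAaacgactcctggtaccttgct
H4C11, chr6:27823842-27824091, plus strand: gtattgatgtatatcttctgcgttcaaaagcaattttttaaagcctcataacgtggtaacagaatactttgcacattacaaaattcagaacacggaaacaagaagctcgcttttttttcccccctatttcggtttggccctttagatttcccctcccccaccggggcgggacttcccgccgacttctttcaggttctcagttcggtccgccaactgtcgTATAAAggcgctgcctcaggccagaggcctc
H1-2, chr6:26056471-26056720, minus strand: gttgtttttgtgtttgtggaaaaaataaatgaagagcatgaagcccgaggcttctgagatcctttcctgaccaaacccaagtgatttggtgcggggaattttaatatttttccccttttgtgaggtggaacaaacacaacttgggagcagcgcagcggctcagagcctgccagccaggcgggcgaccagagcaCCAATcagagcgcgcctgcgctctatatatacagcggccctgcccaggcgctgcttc

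H2AC6, H2BC21 and H2AC25 each start close to a histone gene that runs the other way. H2BC4 starts 246 bases from H2AC6, H2AC20 starts 236 bases from H2BC21 and H2BC26 starts 230 bases from H2AC25. Of the 42 genes, 40 matched the promoter table, and 15 of these (37.5%) had a gene on the other strand starting within 300 bases upstream, against 12.6% of 27305 promoters. In the 250 bases the octamer was present in 10 of 13 H2B genes and 6 of 8 H2A genes, against 1.66% of all promoters, and in none of the H1, H3 or H4 genes. Of the 40 promoters, 35 (87.5%) held CCAAT, against 33% of all, and 27 (67.5%) held TATAAA, against 11.1%. The promoters of the pairs H2AC6 and H2BC4, H2AC14 and H2BC14, H2AC15 and H2BC15, and H2AC17 and H2BC17 are largely the same bases. A motif in these bases was counted for both genes of a pair. H2AC6, H2BC21 and H2BC12 held all 3 motifs, H2AC25 held CCAAT alone, H4C11 TATAAA alone and H1-2 CCAAT alone. In H2BC12 a TATAAA and its reverse overlap. A match describes these letters and does not show that a factor binds there.

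Most member probe sets gave no signal above background. RMA, the background correction and summary the values come from, gives no detection call, so the background of each array was taken as the 95th percentile of 107 probe sets for olfactory receptor genes, which lay between 5.47 and 5.99 on the log2 scale. Of the 48 probe sets, 27 were at or under this level on all 10 arrays, 13 were above it on all 10 and 8 were above it on some. The 27 had means over arrays from 3.07 to 5.29. The 13 stood for 12 genes, namely H1-2 (linker histone H1), H2AC6, H2AC14 and H2AC25 (H2A), H2BC5, H2BC6, H2BC9, H2BC12 and H2BC21 (H2B), H3C8 (H3) and H4C9 and H4C11 (H4), with H2BC5 present on both its probe sets. By family, 6 of 14 H2B, 3 of 10 H2A, 2 of 9 H4, 1 of 7 H1 and 1 of 8 H3 probe sets were above background throughout. The 8 in between were H1-3, H2AC4, H2AC17, H3C3, the probe set 214616_at of H3C6, H4C5 and both probe sets of H1-6, the testis linker histone. The probe set of H2BC1, the testis H2B, was at background on every array. A probe set at background does not place its gene there, since probe sets shared with other histone genes were left out by the choice of members.

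**Figure D1:**
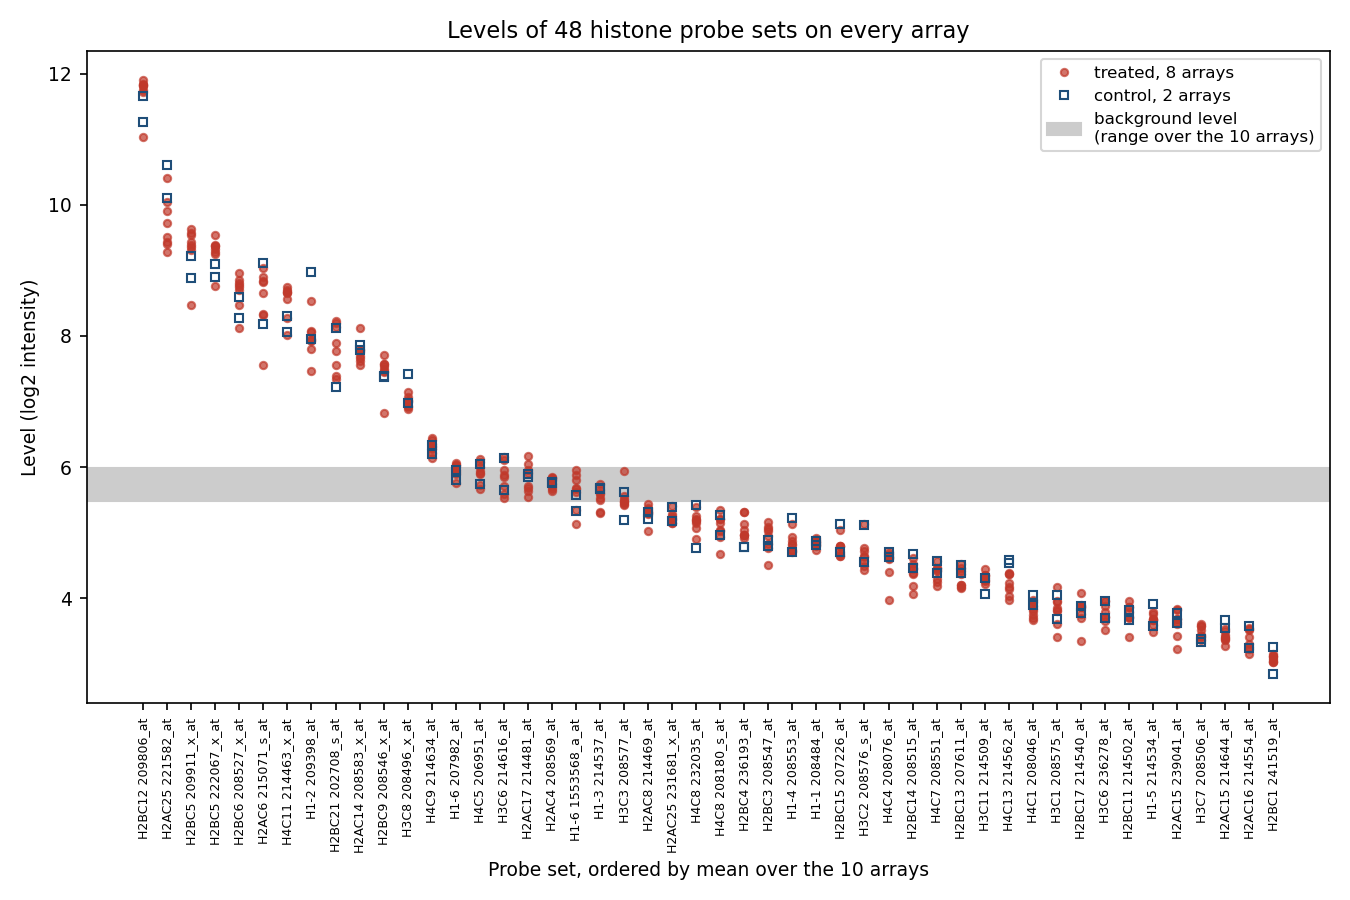
Level of each of the 48 histone probe sets (log2 intensity, vertical) on the 8 treated arrays (filled circles) and 2 control arrays (open squares), ordered by mean, with the range of the background level over the 10 arrays in grey (5.47 to 5.99). On all 10 arrays 13 probe sets lie above that array's background and 27 at or under it.

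Histone genes of a family are near-identical, so several probe sets can hold the signal of more than 1 gene. Of the 13 above background, 7 carry the suffix x_at, with which Affymetrix marks probes that may hybridise to other transcripts, and 2 carry s_at, which marks probes common to several transcripts. Members are therefore named with their probe set where they are described. Both probe sets of H2BC5 gave like values, with means of 9.28 and 9.23. The probe sets of H2AC25 did not, since 221582_at had a mean of 9.84 and 231681_x_at, at background on every array, a mean of 5.24.

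The 75th percentile of the arrays lay between 7.49, at 2 h, and 7.76, at 5 h, lowest on the 2 h array. The 3′ minus 5′ difference of the ACTB control probe sets, a measure of RNA integrity, was 0.65 at 1 h, 0.59 at 2 h, 0.36 to 0.50 from 3 to 7 h and 0.33 at 24 h in treated cells, against 0.29 in both controls. That of GAPDH was -0.01 to 0.10 in treated cells and 0.02 to 0.05 in controls. Keratins KRT8, KRT18 and KRT19 and vimentin (VIM) were far above background on every array, and EPCAM and CDH1 were at background on every array. Of 16 fibroblast and stellate cell markers, 7 were above background on all arrays and 7 on none (LUM, POSTN, FAP, PDGFRA, PDGFRB, FBN1 and MMP2), and their summed level was 12.09 to 12.68 in treated and 12.65 to 12.83 in control arrays. Of 6 leukocyte markers measured, 4 were above background on no array (PTPRC, CD3E, MS4A1 and ITGAM). CD14 ranged from 5.58 to 7.72 and LYZ, above background on every array, from 5.98 to 7.23. The summed level of all 6 was 8.08 to 8.46 in treated and 8.60 to 8.86 in control arrays. In RNA of whole cultures, fewer cells in S phase and less histone message per cell cannot be told apart.

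Over the first 7 h of exposure 3 histone genes fell and none of the members tested rose. The probe sets tested were those at or above the 40th percentile of the mean level (log2 4.95), 32768 in all and 26 of the 48 members: the 13 above background, the 8 in between and 5 at background. Those that fell were H2AC6, H2BC21 and H2AC25. Of all probe sets tested, 5.47% fell and 8.33% rose at a limma adjusted p under 0.05. Either direction was called for 13.8%. Of the members with a positive slope, 1 had an unadjusted p under 0.05, H1-2, against 17.6% of all probe sets tested.

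H2AC6 (215071_s_at), a core histone H2A gene, had levels of 9.03, 8.90, 8.83, 8.82, 8.65, 8.34 and 8.31 at 1 to 7 h and 7.56 at 24 h in treated cells, against 8.18 at 0 h and 9.11 at 24 h in control cells. Each treated hour was at or under the hour before, all 7 lay between the 2 controls, and the 24 h treated array was the lowest of the 10. The slope over the 7 arrays was -0.12 ± 0.02 log2 units per hour (SE, limma adjusted p = 0.00767). For H2BC4, the gene starting next to it, the probe set of its own was at background on every array. Of the probe sets it shares with other H2B genes (5 genes each), 208490_x_at was above background on all 10 arrays. The probe set 208523_x_at was above it on 9 and 214455_at on none, so that the level of H2BC4 is not resolved.

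H2BC21 (202708_s_at), a core histone H2B gene known for its polyadenylated transcript, had levels of 8.13, 8.19, 8.23, 7.90, 7.77, 7.55 and 7.35 at 1 to 7 h and 7.38 at 24 h in treated cells, against 7.22 at 0 h and 8.11 at 24 h in control cells. The first 3 h lay at or above the 24 h control and the later arrays between the controls. The slope was -0.15 ± 0.02 per hour (limma adjusted p = 0.00852). For both H2AC6 and H2BC21 the 2 controls lay at least as far apart as hours 1 and 7 did. When the control 0 h array was included as hour 0, the slopes were -0.04 (adjusted p = 0.711) and -0.04 (adjusted p = 0.742). Their calls held when any single hour was left out, with slopes from -0.13 to -0.11 for H2AC6 and from -0.18 to -0.13 for H2BC21.

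H2AC25 (221582_at), an H2A gene of the small cluster on chromosome 1, had levels of 10.41, 10.04, 9.72, 9.43, 9.51, 9.28 and 9.39 at 1 to 7 h and 9.91 at 24 h in treated cells, against 10.10 at 0 h and 10.60 at 24 h in control cells. From 2 h on every treated array lay under both controls, lowest at 6 h, and the 24 h array stood nearer to them than those of 3 to 7 h. The slope was -0.17 ± 0.03 per hour (limma adjusted p = 0.0115), and its call ended without the 1 h array (-0.13, adjusted p = 0.06) or the 6 h array (-0.16, adjusted p = 0.0513). Hours 4 to 7 averaged 9.40 ± 0.10 (SD, n = 4), against 10.35 ± 0.35 in controls (n = 2), a difference of -0.95 ± 0.19 (SE, limma adjusted p = 0.0177). This call ended without the 24 h control (-0.70, adjusted p = 0.0898) or the 6 h array (-0.905, adjusted p = 0.051). Against hours 1 to 3, hours 4 to 7 differed by -0.65 ± 0.16 (adjusted p = 0.034). H2AC25 was the 1 member of 26 called in that comparison, against 2.86% of all probe sets tested falling and 8.04% rising (10.9% either way). When 1, 2, 4, 5, 6 or 7 h was dropped, the adjusted p lay between 0.0517 and 0.13. In the main fit of this comparison H2BC21 differed by -0.54 ± 0.19 (limma adjusted p = 0.093) and H3C6 (214616_at) by -0.38 ± 0.13 (adjusted p = 0.0899). Neither passed the threshold. The other probe set of H2AC25, 231681_x_at, had a slope of -0.02 ± 0.02 at background level (adjusted p = 0.651).

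**Figure D2:**
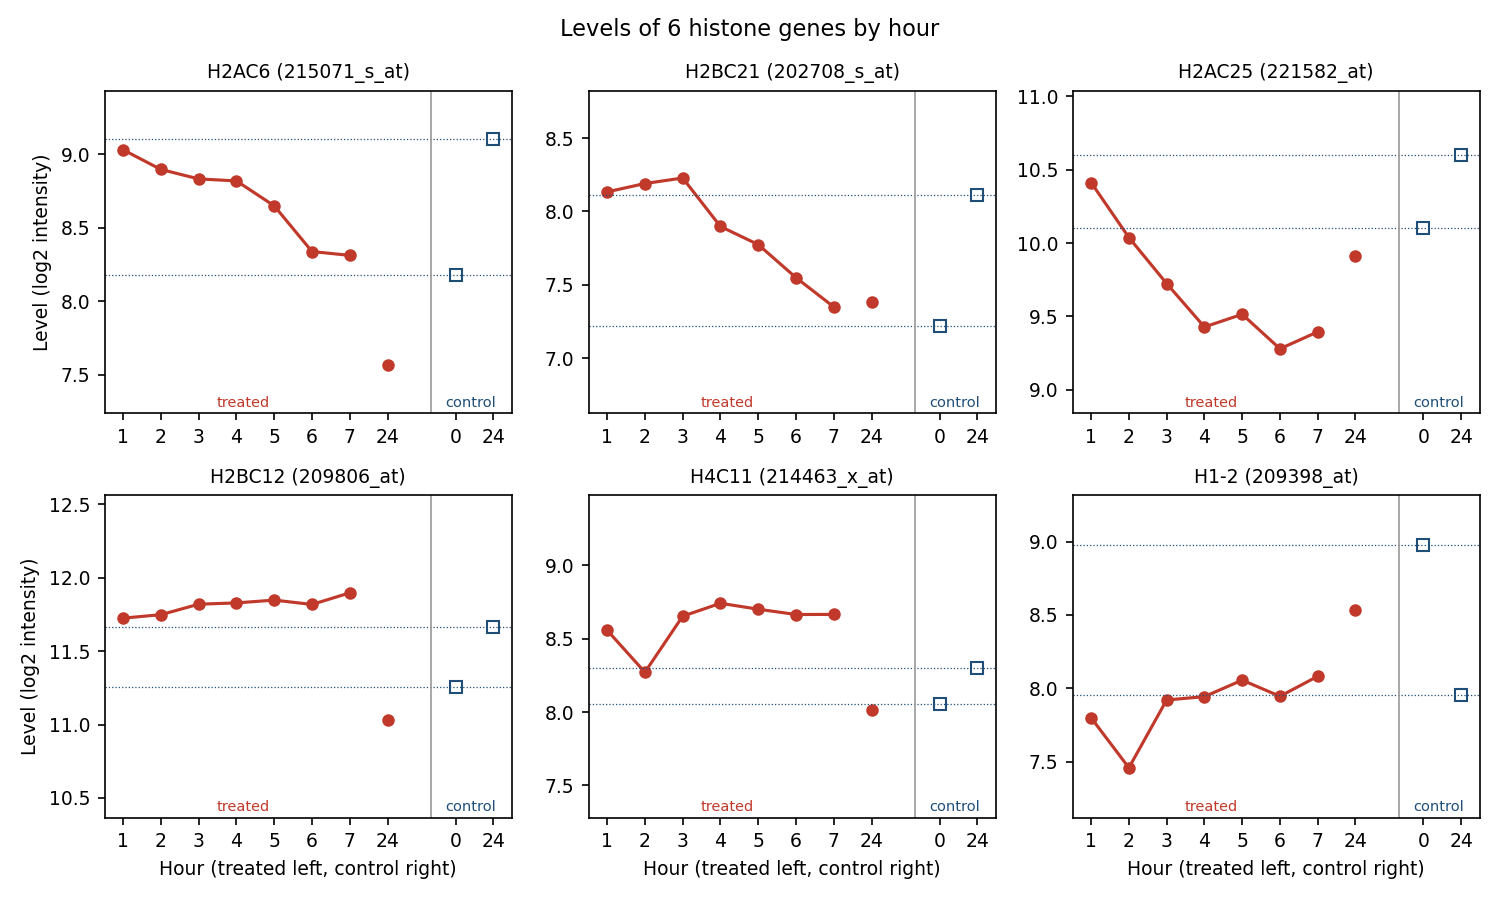
Level (log2 intensity, vertical, all panels spanning the same number of log2 units) of H2AC6, H2BC21, H2AC25, H2BC12, H4C11 and H1-2 on each array, with treated hours as filled circles on the left and the controls at 0 and 24 h as open squares on the right, repeated as dotted lines. H2AC6, H2BC21 and H2AC25 go down from 1 to 7 h with slopes of -0.12, -0.15 and -0.17 per hour, and H2BC12 and H4C11 lie above both controls at 4 to 7 h and below both at 24 h.

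ACTB's 3′ minus 5′ difference also went down over most of these hours, as given above, and its part in the 3 slopes was not tested. The other members above background had slopes from -0.02 to 0.07, none past the threshold. Over the 13, the median slope was 0.02 and 9 of 13 were positive, against a median of 0.00 over all probe sets tested. Between hours 4 to 7 and hours 1 to 3 the arrays did not overlap for 2 higher and 6 lower members, against 17.6% and 11.3% of all probe sets tested. The 6 included H3C6 (214616_at), an H3 gene near background, at -0.38 ± 0.13 (adjusted p = 0.0899), and H1-3 (214537_at), a linker histone also near background, at -0.25 ± 0.09 (adjusted p = 0.102). H1-6 (1553568_a_at) had a slope of -0.07 ± 0.04 around the background level, H2AC4 one of -0.03 ± 0.02 and H2AC14 one of 0.03 ± 0.02.

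**Figure D3:**
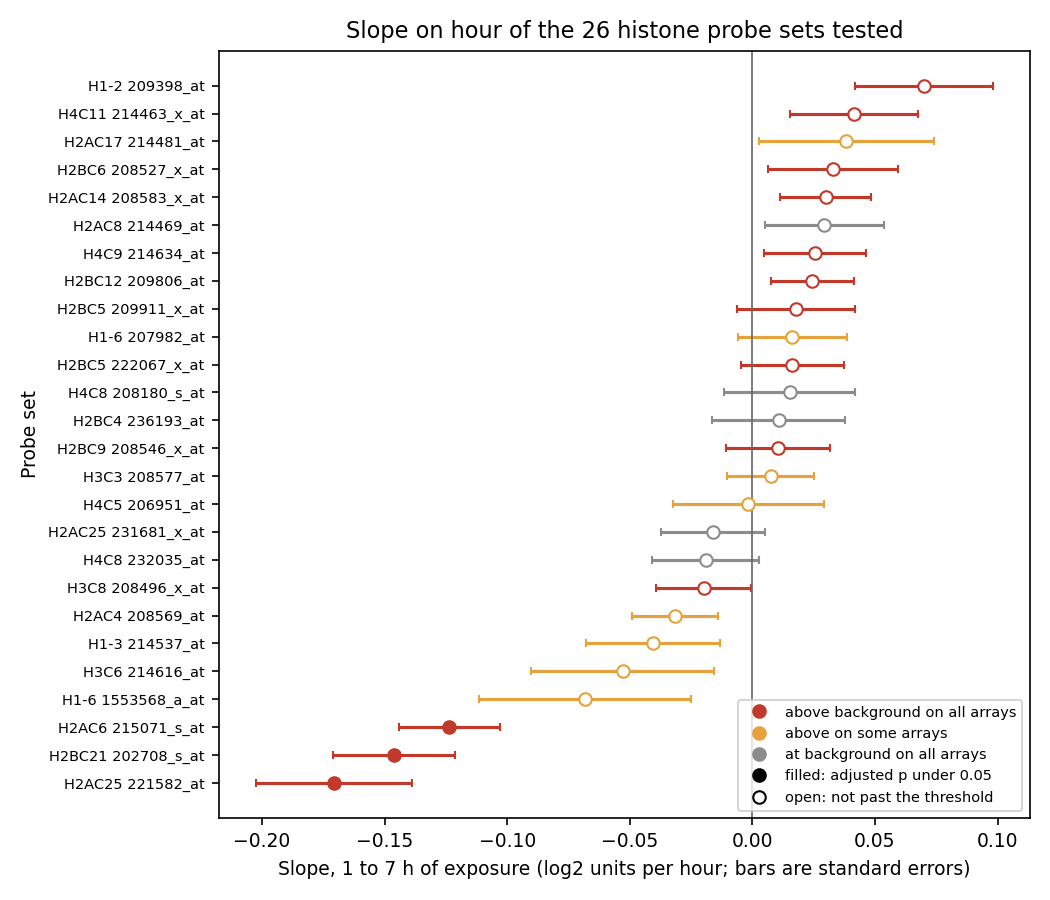
Slope on hour over the 7 treated arrays from 1 to 7 h (log2 units per hour, horizontal, bars are standard errors) for the 26 histone probe sets tested, coloured by their standing against background, with filled points past the threshold. The 3 filled points, H2AC25, H2BC21 and H2AC6, lie at -0.17, -0.15 and -0.12.

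At hours 4 to 7, H4C11 rose and H2AC25 fell against the 2 controls, and 5 of the 6 H2B probe sets above background lay above both controls without passing the threshold. These were 2 of the 26 members tested, near the share of all probe sets tested. Of all, 3.94% rose and 3.51% fell (7.45% either way). H4C11 (214463_x_at), a core histone H4 gene, had levels of 8.56, 8.27, 8.65, 8.74, 8.70, 8.66 and 8.67 at 1 to 7 h and 8.02 at 24 h in treated cells, against 8.06 at 0 h and 8.30 at 24 h in control cells. It averaged 8.69 ± 0.04 at 4 to 7 h (SD, n = 4) and 8.18 ± 0.17 in controls (n = 2), a rise of 0.51 ± 0.12 (SE, limma adjusted p = 0.0322). Outside the members, H4 probe sets shared by 14 genes and above background on all arrays differed in direction. At these hours 205967_at was at -1.06 (limma adjusted p = 0.00594) and 208580_x_at at 0.39 (adjusted p = 0.167). The 4 to 7 h arrays of H4C11 (214463_x_at) all lay above both controls. The call ended when the 0 h control was dropped (0.39, adjusted p = 0.16) and when any 1 of the 4 to 7 h arrays was dropped (adjusted p between 0.0605 and 0.0755).

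H2BC12 (209806_at), the H2B member with the highest mean, had levels of 11.73, 11.75, 11.82, 11.83, 11.85, 11.82 and 11.90 at 1 to 7 h and 11.03 at 24 h in treated cells, against 11.26 at 0 h and 11.66 at 24 h in control cells. It lay above both controls at each hour from 1 to 7 and below both at 24 h. The difference was 0.30 ± 0.12 at hours 1 to 3 (limma adjusted p = 0.179) and 0.39 ± 0.12 at hours 4 to 7 (adjusted p = 0.069). H2BC5 (209911_x_at) had levels of 9.31, 9.35, 9.57, 9.53, 9.62, 9.38 and 9.44 at 1 to 7 h and 8.47 at 24 h in treated cells, against 8.89 at 0 h and 9.22 at 24 h in control cells. It had the same order of arrays, with differences of 0.36 ± 0.13 (adjusted p = 0.156) and 0.44 ± 0.13 (adjusted p = 0.0611), and its other probe set differed by 0.39 ± 0.11 at hours 4 to 7 (adjusted p = 0.0502). H2BC6 (208527_x_at) differed by 0.40 ± 0.13 at hours 4 to 7 (adjusted p = 0.0896) and H2BC9 (208546_x_at) by 0.20 ± 0.10 (adjusted p = 0.247). With no overlap between the arrays of the 2 groups, 7 of the 26 members were higher at hours 4 to 7 than in controls and 4 lower, against 15.8% and 16.3% of all probe sets tested.

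At hours 1 to 3 none of the 26 members passed, against 0.687% of all probe sets tested rising and 1.63% falling (2.32% either way). At an unadjusted p under 0.05 there were 6 of 26, against 22.5% of all probe sets tested. Of the 6, 5 were higher, against 8.02% of all, and 1 lower, against 14.4%. Without overlap 8 members were higher and 3 lower, against 15.9% and 19.7% of all. The comparison shares its controls with that of hours 4 to 7. The median over the 13 members above background was 0.23, against -0.02 over all probe sets tested, with only the 0 h control it was 0.39, and with only the 24 h control 0.06. At hours 4 to 7 the median was 0.06, or 0.35 with only the 0 h control. With only the 0 h control, H2BC21 differed by 0.96, H2BC12 by 0.51 and H1-2 by -1.25 at hours 1 to 3. Both probe sets of H4C8 were at background. From the 0 h control, 232035_at differed by 0.43 to 0.62 at 1 to 3 h and 208180_s_at by -0.02 to 0.25.

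H1-2 (209398_at), the only H1 member above background on all arrays, had levels of 7.80, 7.46, 7.92, 7.94, 8.06, 7.95 and 8.08 at 1 to 7 h and 8.54 at 24 h in treated cells, against 8.98 at 0 h and 7.95 at 24 h in control cells. Every treated array was under the 0 h control, and the 24 h treated array lay between the controls. The difference from both controls was -0.74 ± 0.24 at hours 1 to 3 (limma adjusted p = 0.119) and -0.46 ± 0.23 at hours 4 to 7 (adjusted p = 0.27). The slope over 1 to 7 h was 0.07 ± 0.03 (adjusted p = 0.134). H3C8 (208496_x_at), the H3 member with the highest mean, ranged from 6.89 to 7.15 in treated cells, against 6.98 at 0 h and 7.41 at 24 h in control cells, so that the 24 h control was the highest of the 10. Its difference at hours 4 to 7 was -0.23 ± 0.12 (adjusted p = 0.302). H2AC14 (208583_x_at) ranged from 7.56 to 7.78 at 1 to 7 h and was 8.12 at 24 h in treated cells, against 7.87 at 0 h and 7.78 at 24 h in control cells. H4C9 (214634_at) ranged from 6.14 to 6.45 in treated cells, against 6.20 at 0 h and 6.33 at 24 h in control cells.

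With all 8 treated arrays set against the 2 controls, none of the 26 members passed, and 0.0458% of all probe sets tested did, all of them higher. An unadjusted p under 0.05 was reached by 2 of the 26, against 12.1% of all probe sets tested, namely by H2AC25 at -0.64 ± 0.26 (limma adjusted p = 0.36) and by H2BC4 (236193_at) at 0.29 ± 0.12 (adjusted p = 0.37). H2BC4 ranged from 4.92 to 5.32 in treated cells, against 4.79 at 0 h and 4.78 at 24 h in control cells. It was the 1 member whose treated arrays all lay above both controls, and 0 lay below, against 3.38% and 5.74% of all probe sets tested, and all values of this probe set were at background.

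Genes that act with these histones were described from lists, to be read against the 8.33% of all probe sets tested that rose and the 5.47% that fell with hour. Of 46 G1/S and replication genes tested, 43 rose with hour and 0 fell, with a median slope of 0.27. Of 37 genes of histone transcription and message processing tested, 14 rose and 1 fell. SLBP, which binds the histone stem-loop, had a slope of 0.20 ± 0.02 per hour (limma adjusted p = 0.00146), and CDC25A, the phosphatase that activates CDK2, one of 0.39 ± 0.04 (adjusted p = 0.00181). CCNE2, cyclin E2, had a slope of 0.64 ± 0.08 (adjusted p = 0.00248) and SRRT, a cap-associated factor of RNA processing, one of 0.20 ± 0.02 (adjusted p = 0.00248). SLBP and CCNE2 belong to both lists. Among the 26 histone probe sets 3 fell and 0 rose. The difference between the lists was not tested.

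Of 28 histone chaperones tested, 10 rose and 2 fell with hour. ASF1B, a chaperone of H3 and H4 in dividing cells, had a slope of 0.26 ± 0.02 (limma adjusted p = 0.00103), while ASF1A, its paralogue, fell by 0.17 ± 0.02 per hour (adjusted p = 0.00248). CHAF1B, a subunit of the assembly factor CAF-1, rose by 0.29 ± 0.03 (adjusted p = 0.00126) and MCM2, a helicase subunit that also binds histones, by 0.28 ± 0.03 (adjusted p = 0.00145). Of 11 genes tested from the list of replication-independent histones, 1 rose and 0 fell. It was H2AX, the variant phosphorylated at DNA breaks, which is known to give both a stem-loop and a polyadenylated message, at 0.21 ± 0.04 per hour (adjusted p = 0.018). H2AZ2, at 0.06 ± 0.02 (adjusted p = 0.0924), MACROH2A1, at 0.05 ± 0.02 (adjusted p = 0.0878), and the linker histone H1-10, at -0.06 ± 0.02 (adjusted p = 0.0789), did not pass. Of 36 G2/M and mitosis genes, 11 rose and 1 fell, with a median slope of 0.05.

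**Figure D4:**
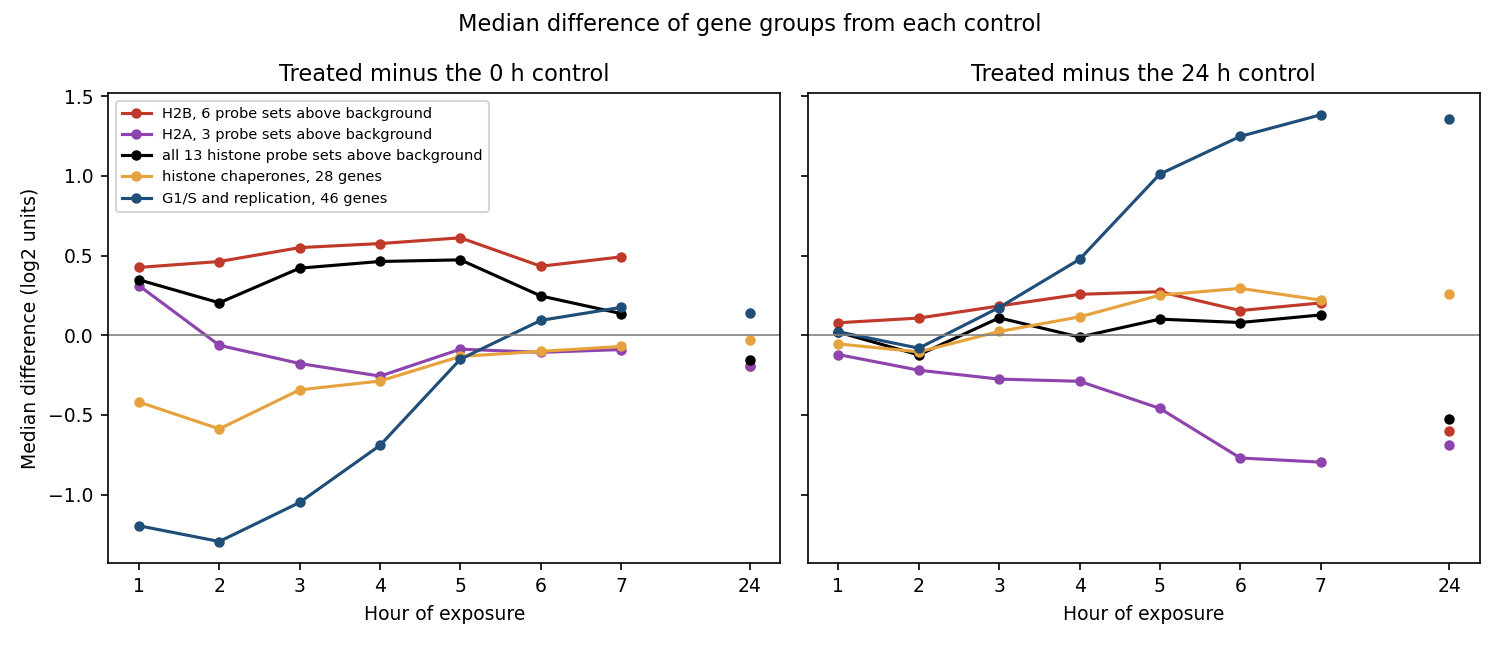
Median difference of treated arrays from the 0 h control (left) and the 24 h control (right), in log2 units, by hour of exposure, for H2B, H2A and all histone probe sets above background and for 2 lists of other genes. At 7 h the G1/S and replication median is 0.17 on the left and 1.38 on the right, and that of the 13 histone probe sets 0.14 and 0.13.

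By hour, the median of the 13 members above background was 0.35, 0.20, 0.42, 0.46, 0.47, 0.25 and 0.14 above the 0 h control at 1 to 7 h and -0.15 from it at 24 h. From the 24 h control it was between -0.12, at 2 h, and 0.13, at 7 h, and -0.53 at 24 h. The 6 H2B probe sets had medians of 0.43 to 0.61 above the 0 h control and 0.08 to 0.27 above the 24 h control from 1 to 7 h. Set against the 0 h array, the G1/S and replication genes had medians of -1.20, -1.29 and 0.17 at 1, 2 and 7 h. Set against the 24 h control array, these were 0.02, -0.08 and 1.38.

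At 24 h, most members above background were lower in the treated array than in the control array of the same hour. H2AC6 was at 7.56 in treated and 9.11 in control cells, a difference of -1.55. It was the only member tested with a difference of 1 log2 unit or more, against 0.732% of all probe sets that much lower and 1.35% that much higher. H2BC5 (209911_x_at) differed by -0.75, H2BC21 by -0.73, H2AC25 by -0.69 and H2BC12 by -0.63. H1-2 was 0.58 and H2AC14 0.33 higher in the treated array, and H3C3 (208577_at), near background, was at 5.94 in treated and 5.19 in control cells. In all 10 of the 13 were lower, with a median of -0.53, against 51.4% of all probe sets tested lower and a median of -0.01. Each is the difference of 1 array from another, without a test.

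Against the 0 h control the 24 h treated array was lower in 10 of the 13 as well, against 53.2% of all probe sets tested, with a median of -0.15. No member was apart by 1 or more, against 0.314% of all higher and 0.278% lower. H2AC6 differed by -0.61, H2BC9 by -0.56 and H1-2 by -0.44, and H2AC14 by 0.25, H3C6 (214616_at) by 0.29 and H3C3 by 0.32. The 24 h control against the 0 h control gave a median of 0.33, with 2 of the 13 lower, against 50.5% of all probe sets tested. H2AC6 differed by 0.93, H2BC21 by 0.89 and H2AC25 by 0.50, and H1-2 by -1.02, the only member apart by 1 or more, against 1.09% of all probe sets that much lower and 0.638% higher. H4C5 and H3C3, both near background, differed by -0.32 and -0.43.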

How the data were processed

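The values deposited by the authors are log2 intensities. RMA is named in the submitters' processing notes without a version. A table of all probe sets was used, and a filtered table of 7622, equal to it within 5e-09, served as an alternative. Genes were named from the platform annotation, and all 48 members matched RefSeq symbols. The members and lists were chosen with earlier results of these data known. After 62 control probe sets were left out, 32768 of 54613 at or above the 40th percentile of the mean were tested, each on its own, with limma 3.58.1 in R 4.3.3 (lmFit, eBayes, two-sided, Benjamini-Hochberg over all, threshold 0.05). Treated against control used 10 arrays, windows of hours the 9 without the treated 24 h array, and the slope 7. A window's spread holds any drift between its hours. Single-array differences were counted at 1 log2 unit or more. The fits were tested on simulated data. Members named by rule were the 8 with the smallest p for the slope, 4 for each other comparison, the highest mean of each family and the 3 largest single-array differences each way. H2BC6 and H4C9 fell outside this rule and were described as members above background. Alternatives were filters, 1 probe set per gene, cyclic loess scaling, another variance prior, each array left out, each control alone and other time points. The number of arrays limits the precision. Python 3.11.15, pandas 2.3.3, numpy 2.4.6 and matplotlib 3.10.9 were used.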

Additional observations from a re-analysis of the deposited data

Results flagged for a closer look

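For 6 probe sets the treated 24 h array stood apart from the other 7 treated arrays, by a gap to the nearest array that was a large share of the whole range (over 0.526, Dixon's limit for 8 samples). These arrays differ in hour, so the gap sets 24 h against 1 to 7 h. Chance flags about 1 in 20 such groups where they are not picked by their values. The 18 named members were examined. Some, H2BC9 and H3C3 among them, were named at least in part for their 24 h treated difference. That rate therefore does not hold for them, and the share over all probe sets is not given. H2BC12 was at 11.03 at 24 h, with the next at 11.73, H2BC5 at 8.47 (next 9.31) and, on its other probe set, at 8.76 (next 9.25), and H2BC9 at 6.82 (next 7.46). These 4 were low. H2AC14 was high at 8.12 (next 7.78), and H3C3, near background, at 5.94 (next 5.56).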

How the results depend on the processing

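No paired analysis was possible because the labels number no replicates. The count with treated against control stayed at 0 in every alternative run. At hours 1 to 3 the count of 0 became 4 against the 0 h control alone (8.8% of all probe sets tested) and stayed at 0 against the 24 h control alone; medians were 0.3905 and 0.0632, and leaving out each array gave 0 to 4 and medians in that range. At hours 4 to 7 the count was 2 of 26 members, where 2441 of all 32768 probe sets tested were called. With 1 probe set per gene it became 4 of 16, where 1636 of all 11865 were called. The 60th percentile filter gave 4 of 13, with 2665 of all 21845 called. An intensity trend and robust prior gave 5 of 26, with 2899 of all 32768 called. In these settings the share of all that was called was also larger than in the main fit. The median was 0.3534 when the 0 h array was the only control and 0.0519 when the 24 h array was. Leaving out each array gave 0 to 4 and medians of 0.018 to 0.3534, the highest with only the 0 h control. For hours 4 to 7 against 1 to 3 the range was 0 to 3, and the median of 0.08 became -0.4661 in the filtered table, which holds 4 of the 13. The slope count of 3 was 2 to 4 with each array left out (H1-6 was added without the 7 h array) and 1 with the 0 h control as hour 0, where H1-2 turned to -0.0441, and its median of 0.02 became -0.1348 in the filtered table. For treated against control the median was 0.0127 to 0.3792 with each array left out. A threshold of 0.58 in place of 1 gave 8 members for the 24 h arrays, 2 higher and 6 lower. Of all probe sets tested, 4.47% were that much higher and 3.55% lower. For treated 24 h against control 0 h it gave 1, which was lower, against 1.43% of all higher and 2.37% lower. Between the controls it gave 4, with 3 higher and 1 lower at 24 h, against 2.83% and 5.03% of all. Cyclic loess scaling gave 0 between the controls. The 3 members called for the slope were the same under cyclic loess scaling, both filters, 1 probe set per gene, the other prior and the filtered table. Members at background on all arrays numbered 25 with the 90th percentile of olfactory receptor probe sets and 18 with the 40th percentile of all probe sets, in place of 27. The fits over 2 to 7 h and with a single control are also those that leave out the 1 h array or a control. Causes were not tested.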

Other observations

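Probe sets for several histone genes at once fell outside the choice of members. There were 20, with 8 above background on all arrays, 3 on some and 9 on none, and none of the 12 tested passed for the slope, against 13.8% of all probe sets tested. At hours 4 to 7, 1 of the 12 was called, against 7.45% of all, and at hours 1 to 3, 2 were, against 2.32%. They are named here after their values were seen. The probe set 205967_at, shared by 14 H4 genes, had levels of 8.67, 8.53, 8.89, 9.22, 9.21, 8.88 and 8.93 at 1 to 7 h and 10.11 at 24 h in treated cells, against 10.27 at 0 h and 9.97 at 24 h in control cells. It differed by -1.42 at hours 1 to 3 (limma adjusted p = 0.00265) and by -1.06 at hours 4 to 7 (adjusted p = 0.00594), while H4C11 was at 0.51 at hours 4 to 7, and the 24 h treated array lay between the controls. Another H4 probe set, 208580_x_at, also annotated to 14 H4 genes, was at 0.39 at hours 4 to 7 (adjusted p = 0.167), and the difference between the probe sets was not tested. The other called at hours 1 to 3, 215779_s_at, shared by 2 H2B genes and at background on every array, was at 0.59 (limma adjusted p = 0.0481).

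H2BC12L, an H2B gene outside the clusters, lay above background and differed by 0.41 at hours 4 to 7 (limma adjusted p = 0.0763). H3-4, the testis H3, and the pseudogenes H4C10P and H2AC5P were at background on every array.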
